A study of Mus musculus with 5 samples.

Results

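Gfap, Apoe, Agt, Aqp4, Slc1a3, Slc6a11 and Vim, a set of 7 genes of astrocyte support and reactivity among the 31054 features counted, were followed through 5 single-nucleus RNA libraries of the mouse paraventricular hypothalamus. Each symbol matched 1 feature. The 7 genes were selected on their counts in astrocyte nuclei of these libraries, including their differences between the groups, so their levels are given as a description. A nucleus was taken as an astrocyte nucleus when Slc1a2 and Gja1 together held at least 25 of every 10000 of its UMIs (unique molecular identifiers, the count of captured RNA molecules) and Rbfox3, Snap25 and Syt1 together held fewer than 15. This held for 3254 of the 29484 nuclei used, and none of the 7 genes takes part in that rule.

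The first experiment compared male OT-Cre; Rosa26tm9(CAG-tdTomato)Hze mice, which carry the Ai9 reporter, after exposure on gestation day 12.5 to saline (10 mL/kg given to the dam) or to valproic acid (VPA, 500 mg/kg), with 1 library for each at 5 weeks of age. The second used male OT-Cre; Rosa26dreaddm3 mice, also called stop-hM3, all of them exposed to VPA before birth. On postnatal day 2 they received saline (hM3 control, 1 library) or clozapine N-oxide (CNO, the ligand of the hM3 receptor; 2 libraries, here CNO 1 and CNO 2), and they were sampled at 5 to 7 weeks. The hM3 mice had also been injected with an AAV in the paraventricular and supraoptic regions. The sources used here give neither its content nor the day of injection. All mice had a C57BL6 background. OT-Cre directs recombination to oxytocin neurons, not to the astrocytes described here. Nuclei of 2 to 4 mice were pooled per condition, so a library averages over its animals, and the sorting gate favoured larger nuclei. With 1 library in 3 of the 4 groups, differences are given between libraries, with exact 95% intervals that cover counting error only; an exact permutation test of 1 library against 2 cannot go below 1 in 3.

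Astrocyte nuclei numbered 545 (saline), 669 (VPA), 796 (hM3 control), 310 (CNO 1) and 934 (CNO 2), with a median of 3628, 1879, 4313, 4420 and 2224 UMIs. All 12 astrocyte markers outside the rule and the 7 genes, such as Aldh1l1, Aldoc and Ntsr2, were higher in these nuclei than in neuron nuclei of the same library, in each of the 5 libraries. Summed, they reached 15317 to 18193 CPM (a gene's UMIs per 1000000 UMIs of the same nuclei) against 647 to 991 in neurons. The 8 neuron markers summed to 385 to 633 CPM in astrocyte nuclei and to 9157 to 10484 in neurons, with none at 0. Between 4 and 28 of the astrocyte nuclei of a library also passed the marker gate of another class, and no pair of libraries shared more than 23 barcodes.

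Astrocytes clear transmitter, water and potassium from the space around synapses, supply neurons with lipid, and change their cytoskeleton when they become reactive. Slc1a3 encodes the glutamate transporter GLAST and Slc6a11 the GABA transporter GAT-3. Aqp4 encodes the water channel of perivascular endfeet, Agt encodes angiotensinogen, the precursor of the angiotensins, and Apoe encodes the main lipid carrier secreted in the brain. Gfap and Vim encode intermediate filament proteins that are widely used to mark reactive astrocytes.

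STAT3 is a known regulator of astrocyte reactivity, and its binding sites take the palindromic form TTCNNNGAA. This form was searched on both strands in windows from 250 bases before to 50 bases after RefSeq gene starts (GRCm38.p6), which were found for 6 of the 7 genes (not for Aqp4). It was present in 3 of the 8 windows of these 6 genes, those of Gfap, Agt and Slc1a3, and in 8.30% of all 32851 windows. The windows of Apoe, whose levels also differed among the libraries below, held none. The sites are shown in the gene's own direction with the match in capitals, because Gfap and Agt are members whose levels differed among the libraries below while Slc1a3 varied least of the well-counted members.
Gfap, chr11:102897183-102897212, minus strand: atgggggtgcTTCCAGGAAgtcaggggcag
Agt, chr8:124569859-124569888, minus strand: ccagtagggcTTCCTGGAAggggcccagag
Slc1a3, chr15:8710884-8710913, minus strand: ttcaggatccTTCCAAGAAatttcagttat

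The Gfap match begins 2 bases before the RefSeq start, the Slc1a3 match 96 bases before it and the Agt match 172 bases before it. The genes themselves lie at chr11:102887336-102900912 (Gfap), chr8:124556534-124569706 (Agt) and chr15:8634124-8710764 (Slc1a3) in the GENCODE vM21 annotation of GRCm38, all on the minus strand. By that annotation the Gfap site lies inside the gene, downstream of its start, while the Agt and Slc1a3 sites lie before theirs. Agt also carries a TATA box (TATAAA) whose first base lies 30 bases before its start. TATAAA was present in windows of Apoe, Agt, Slc1a3 and Vim, 4 of the 8 windows of the 6 genes (Apoe has 3 windows, of which 1 held it), and in 13.6% of all windows. The 250 bases before the Agt start are printed with both motifs in capitals.
Agt, chr8:124569707-124569956, minus strand: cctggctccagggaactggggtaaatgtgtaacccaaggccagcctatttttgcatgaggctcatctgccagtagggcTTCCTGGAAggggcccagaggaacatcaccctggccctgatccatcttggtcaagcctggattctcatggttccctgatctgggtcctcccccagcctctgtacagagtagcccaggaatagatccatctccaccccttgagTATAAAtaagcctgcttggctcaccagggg

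The core of the interferon-stimulated element (3.44% of all windows) and the full NFI palindrome (0.0365%), searched on both strands as well, were not found in the windows of the 6 genes. A match describes the letters of a window; binding was not measured.

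The transporters were counted deeply. Slc1a3 stood at 2356 CPM in saline astrocyte nuclei, 2402 after VPA, 2107 in the hM3 control, 2170 in CNO 1 and 1831 in CNO 2. CNO 2 was the lowest library, and the counting intervals of saline and VPA overlapped, as did those of the hM3 control and CNO 1. Slc6a11 stood at 1549 in saline, 1062 in VPA, 1421 in the hM3 control, 1055 in CNO 1 and 1083 in CNO 2. Its libraries formed a higher pair, saline and the hM3 control, and a lower set of 3 whose intervals overlapped, VPA, CNO 1 and CNO 2.

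Aqp4 stood at 215 CPM in saline, 115 in VPA, 255 in the hM3 control, 329 in CNO 1 and 312 in CNO 2. VPA was lowest and the CNO libraries, whose intervals overlapped, were highest. Agt, the substrate of renin, had 333 in saline, 219 in VPA, 334 in the hM3 control, 455 in CNO 1 and 457 in CNO 2. Saline and the hM3 control could not be separated by their counting intervals, and neither could the CNO libraries. Apoe stood at 1485 in saline, 1060 in VPA, 2043 in the hM3 control, 3115 in CNO 1 and 3801 in CNO 2. For Apoe no neighbouring intervals overlapped, so that its 5 libraries followed the order VPA, saline, hM3 control, CNO 1, CNO 2.

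The filament genes gave far fewer UMIs. Gfap stood at 30.04 CPM in saline (63 UMIs), 15.3 in VPA (21 UMIs), 76.1 in the hM3 control (283 UMIs), 71.3 in CNO 1 (105 UMIs) and 100.1 in CNO 2 (233 UMIs). The libraries of the first experiment were the lowest, and the intervals of CNO 1 and the hM3 control overlapped. Vim was near the limit of detection in astrocyte nuclei, with 4 UMIs in saline, 2 in VPA, 14 in the hM3 control, 3 in CNO 1 and 34 in CNO 2. Its level of 14.6 CPM in CNO 2 lay above the intervals of the other 4 libraries, which ranged from 1.46 to 3.77 CPM. Gfap lies inside the long noncoding gene Gm26668 of the opposite strand, a separate feature that held 24 to 57 UMIs per library in astrocyte nuclei. Whether counting used strand is not given in the sources used here, so whether reads of the pair were kept apart is not known.

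**Figure D1:**
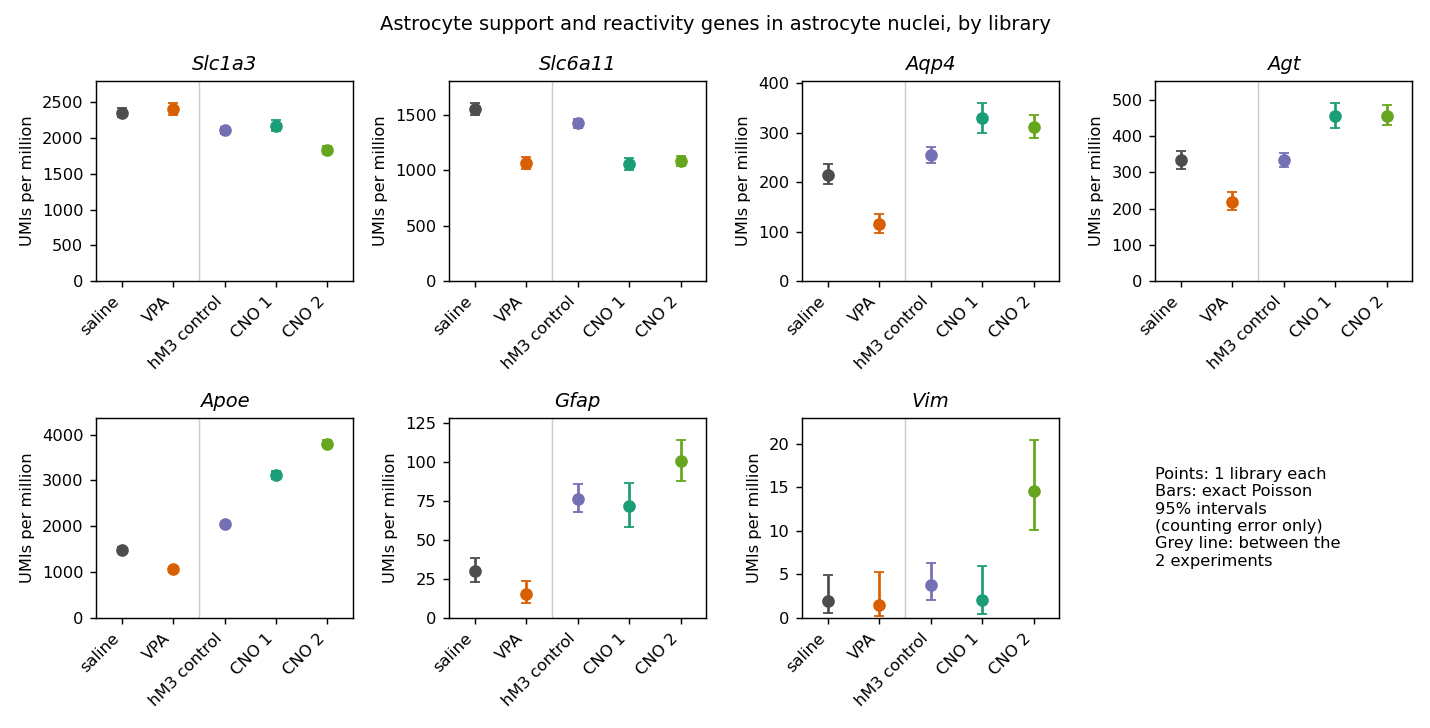
Level of each gene in astrocyte nuclei (CPM, linear axes from 0) for the 5 libraries, with exact Poisson 95% intervals that cover counting error. Apoe climbs from 1060 in VPA to 3801 in CNO 2, Slc1a3 stays between 1831 and 2402, and Slc6a11 is lower in VPA and both CNO libraries than in saline and the hM3 control.

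Few nuclei carried a Gfap UMI. The share was 9.54% of astrocyte nuclei in saline, 2.69% in VPA, 19.97% in the hM3 control, 21.0% in CNO 1 and 17.3% in CNO 2. Among neuron nuclei, which should lack Gfap, it was 0.217%, 0.107%, 1.21%, 1.04% and 1.41%, at median depths of 13340, 6216, 16856, 17956 and 10950 UMIs. With each nucleus thinned to 1000 UMIs, the astrocyte share became 3.85% (95% exact binomial interval 2.40 to 5.83), 1.05% (0.422 to 2.14), 6.28% (4.70 to 8.20), 6.45% (3.99 to 9.79) and 8.57% (6.85 to 10.5). At equal depth the VPA library thus remained lowest and the 3 hM3 libraries overlapped. The saline interval overlapped those of the hM3 control and CNO 1. Apoe was detected in 96.0%, 78.2%, 97.5%, 99.4% and 98.8% of astrocyte nuclei, and after thinning in 70.1%, 59.6%, 79.3%, 91.3% and 93.7%, in the same order. In neurons the thinned Apoe share was 1.58%, 2.27%, 3.14%, 2.88% and 7.45%.

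Across classes of nuclei, Gfap, Apoe, Agt, Slc1a3 and Slc6a11 were highest in astrocyte nuclei in each library, the compartment for which they were chosen. Aqp4 was highest there in the 3 hM3 libraries, though within counting error of ependymal and tanycyte nuclei. Astrocyte nuclei held 38.9% to 76.2% of the UMIs of each of these 6 genes in a library. In CPM, the level in astrocyte nuclei over that in all other nuclei ranged from 20.4 times (Slc6a11, CNO 2) to 132 times (Agt, CNO 1). Gates on other nuclei left a group that passed none, and it held Apoe at 82.5 to 964 CPM and Slc1a3 at 123 to 503. Neurons held Apoe at 11.3 (saline), 20.5 (VPA), 25.7 (hM3 control), 22.6 (CNO 1) and 63.0 (CNO 2) CPM. Slc6a11 in neurons lay between 20.1 and 30.7, with CNO 1 lowest and the hM3 control highest.

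Ependymal and tanycyte nuclei, which line the ventricle, were only 4 to 31 per library. They held Apoe at 476 to 1011 CPM and Aqp4 at 241 to 326. By point value, Aqp4 lay above astrocyte nuclei in saline and VPA (6 and 9 nuclei) and below them in the 3 hM3 libraries. The counting intervals of both classes overlapped in each library, so this order is not resolved. In saline they were 96.7 to 695, on 5 UMIs, against 196 to 236 in astrocyte nuclei. Microglia, the resident immune cells, held Apoe at 127 to 234 CPM in 4 libraries and at 1241 in CNO 2, on 38 nuclei. CNO 2 was likewise the highest library for Apoe in neurons, oligodendrocytes (332 CPM against 43.8 to 216 elsewhere) and oligodendrocyte progenitors (599 against 101 to 247). Vim had its higher levels outside astrocytes: endothelial nuclei held 76.7 CPM in saline, 58.1 in VPA, 194 in the hM3 control and 287 in CNO 2, with 0 UMIs in the 3 endothelial nuclei of CNO 1. Only 2.53% to 12.5% of Vim UMIs of a library came from astrocyte nuclei.

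**Figure D2:**
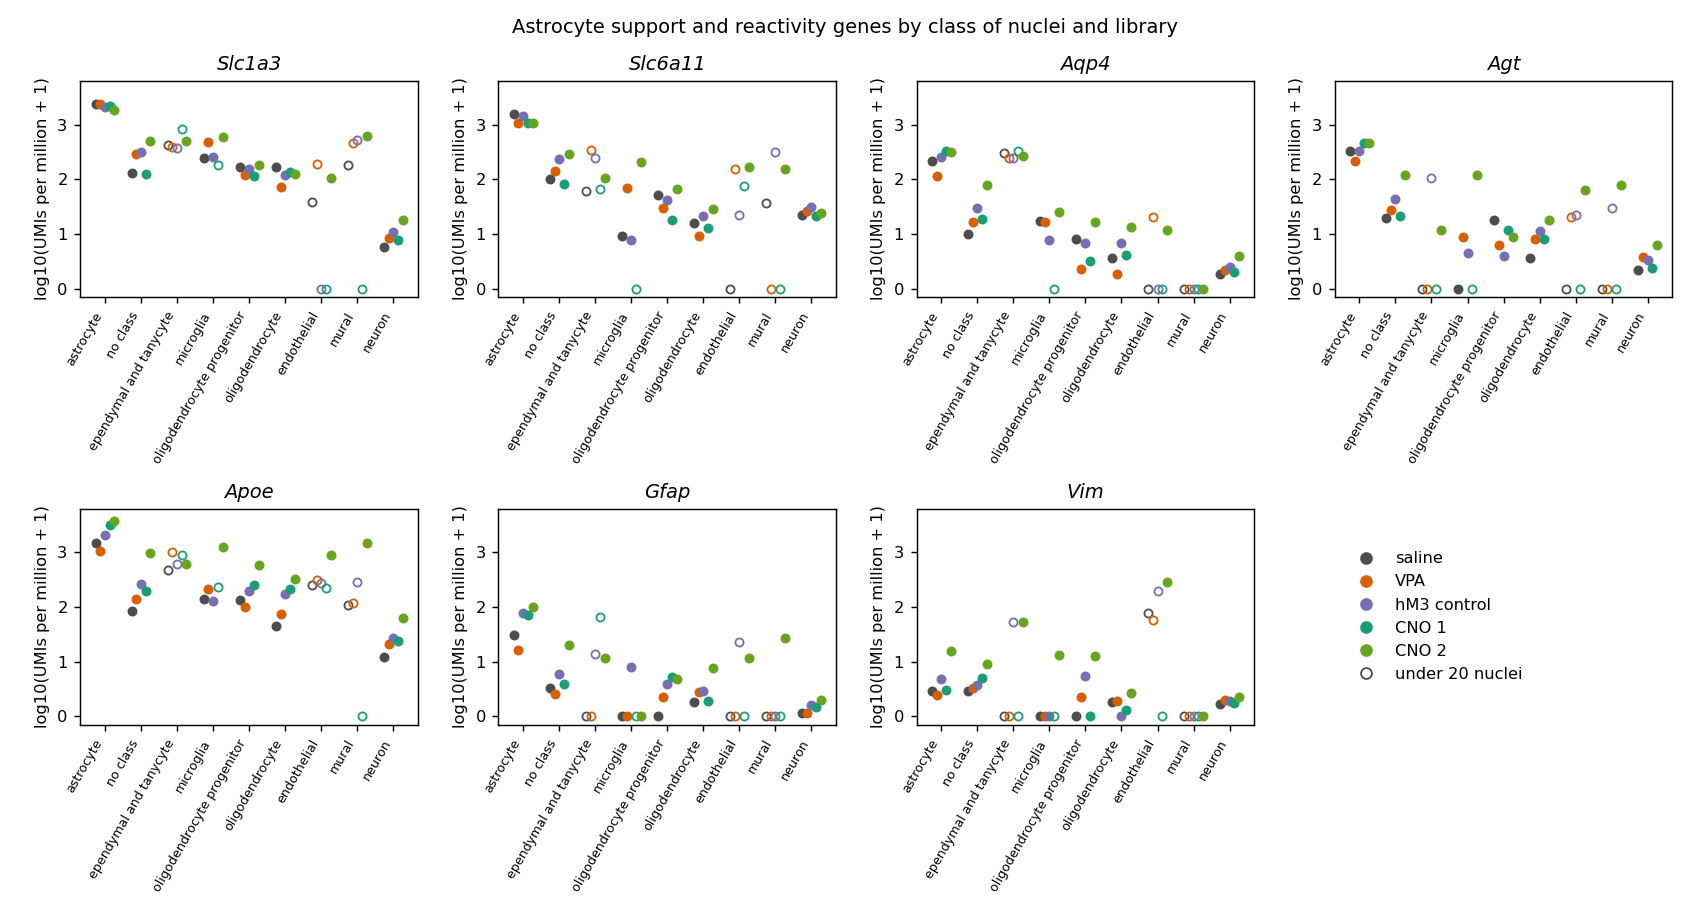
Level of each gene by class of nuclei, as log10 of CPM plus 1, with 1 point per library and open points for sums of under 20 nuclei. Gfap, Apoe, Agt, Slc1a3 and Slc6a11 are highest in astrocyte nuclei of each library (Slc1a3 at 2356 CPM in saline). Aqp4 is higher in the ependymal and tanycyte sums of saline and VPA, on 6 and 9 nuclei, within counting error. Vim lies high in endothelial nuclei except in CNO 1, and the CNO 2 points for Apoe lie high in neurons, microglia and oligodendrocytes as well.

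Prenatal VPA against saline asks what the exposure leaves in the hypothalamus at 5 weeks. In astrocyte nuclei, 5 of the 7 genes were lower in the VPA library by more than counting error. Aqp4 stood at 0.536 of its saline level (95% counting interval 0.444 to 0.643), Gfap at 0.510 (0.295 to 0.847), and Agt at 0.658 (0.573 to 0.755). Slc6a11 stood at 0.686 (0.644 to 0.730) and Apoe at 0.714 (0.670 to 0.760). Slc1a3, by contrast, had a ratio of 1.02 with an interval that spans equality (0.975 to 1.07). Vim, with 6 UMIs in the pair, had an interval from 0.0691 to 5.33, and it was left out of counts over genes, which required 20 UMIs over the libraries compared.

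Over all 10756 genes so measured, 7.13% had a counting interval wholly below equality and 8.48% wholly above it, and the median log2 ratio was 0.03. No member reached a 2-fold difference on the log2(CPM + 10) scale, on which 0.214% of all genes did in either direction and 0.093% lower; the members lay between -0.85 (Aqp4) and 0.03 (Slc1a3). Because the genes were chosen with these values known, nothing is read from their count. Gfap passed 2-fold under 2 of its 10 alternatives, at -1.35 with every nucleus thinned to 1000 UMIs and at -1.04 with the astrocyte gate raised to 50, and stood nearest 0, at -0.38, with nuclei of at least 2000 UMIs. Median depth differed between these libraries (3628 against 1879 UMIs per astrocyte nucleus); with every nucleus thinned to 1000 UMIs, Aqp4 stood at -0.89, Agt at -0.76, Apoe at -0.60 and Slc6a11 at -0.51 on that scale. The same 5 genes were not lower in VPA neurons, where Apoe, for example, stood at 20.5 CPM against 11.3 in saline.

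Other genes of the same pathways, in lists that include the members, were divided. Of 12 genes of water, potassium and endfeet, 10 were lower in the VPA library and 2 higher (45.4% of all genes were lower), with a median log2 ratio of -0.08. The inward rectifier potassium channels Kcnj16 and Kcnj10, partners of Aqp4 at endfeet, stood at -0.61 and -0.60, and the dystrophin gene Dmd at -0.39. Of 13 measured genes of lipid carriage and cholesterol supply, 11 were lower and 2 higher, with a median of -0.28. Clu, a secreted lipid-binding chaperone, stood at -0.76 (306 to 177 CPM), the lecithin-cholesterol acyltransferase gene Lcat at -0.71, and Dhcr7, of the last steps of cholesterol synthesis, at -0.55. The 11 genes of glutamate and GABA handling divided 5 to 6, with a median of -0.07: glutamine synthetase (Glul) stood at 0.44, while Maob stood at -0.43.

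The 12 astrocyte markers outside the rule and the members had a median of -0.11, with 9 lower and 3 higher; Plpp3 stood at -0.48 and Sox9, a transcription factor of astrocyte identity, at -0.42, whereas Aldoc stood at 0.36 and Aldh1l1 at 0.35. Of 5 measured filament and linker genes 4 were higher and 1, Gfap, lower; of 4 pan-reactive genes 1 was higher and 3 lower; of 3 inflammatory (A1-type) genes 2 were higher and 1 lower. Both measured gap junction genes were lower, the 14 regulators of reactivity divided 7 to 7, and no injury (A2-type) gene reached 20 UMIs. No gene of any of these lists reached 2-fold. In the VPA library the neuron markers in astrocyte nuclei summed to 633 CPM against 385 in saline, and endothelial markers to 19.7 against 59.6; their part in the member differences was not tested. With the neuron limit lowered to 5 per 10000 UMIs, the ratios of Aqp4, Agt, Apoe and Slc6a11 were -0.87, -0.64, -0.48 and -0.55.

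The CNO contrast asks what neonatal stimulation of oxytocin neurons in VPA-exposed mice leaves in young adulthood. Apoe, Agt and Aqp4 were higher in both CNO libraries than in the hM3 control and Slc6a11 was lower in both, each by more than counting error. Apoe differed most, at 1.52 times the control in CNO 1 (1.47 to 1.58) and 1.86 times in CNO 2 (1.80 to 1.92). The CNO libraries themselves differed for Apoe by 1.22 times (1.18 to 1.26), less than either differed from the control. Agt stood at 1.36 times the control in CNO 1 (1.24 to 1.495) and 1.37 times in CNO 2 (1.26 to 1.48). With every nucleus thinned to 1000 UMIs, the log2 ratio of the CNO mean for Agt was 0.28, against 0.44 unthinned.

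Aqp4 stood at 1.29 times the control in CNO 1 (1.15 to 1.44) and 1.22 times in CNO 2 (1.11 to 1.35). Slc6a11 stood at 0.743 of the control in CNO 1 (0.701 to 0.786) and 0.763 in CNO 2 (0.727 to 0.7998). For Agt, Aqp4 and Slc6a11 the interval of CNO 2 over CNO 1 spanned equality. Gfap, Slc1a3 and Vim differed between the CNO libraries: Gfap stood at 0.936 of the control in CNO 1 (0.741 to 1.18) and at 1.31 times in CNO 2 (1.101 to 1.57). Slc1a3 stood at 1.03 times in CNO 1 (0.988 to 1.07) and at 0.869 in CNO 2 (0.837 to 0.902). Vim stood at 0.541 in CNO 1 (0.0996 to 1.94) and at 3.88 times in CNO 2 (2.03 to 7.82), so the higher value rests on CNO 2 alone.

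**Figure D3:**
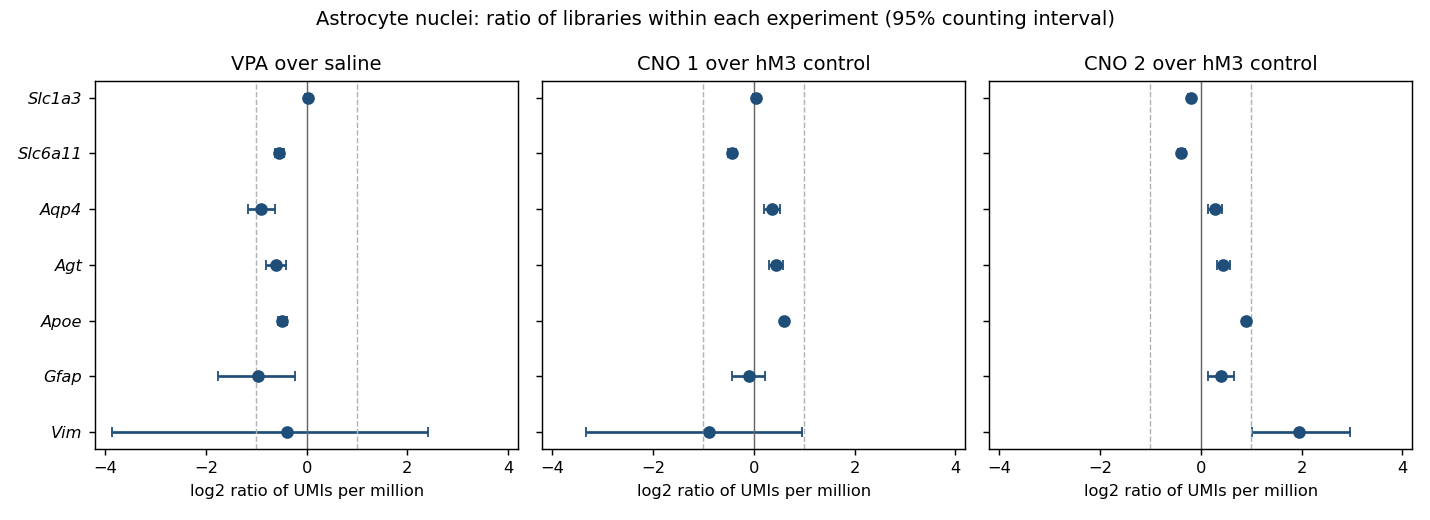
log2 ratio of CPM in astrocyte nuclei for VPA over saline and for each CNO library over the hM3 control, with exact 95% counting intervals; dashed lines mark 2-fold. Slc6a11, Aqp4, Agt, Apoe and Gfap lie left of 0 in the VPA panel, and Apoe, Agt and Aqp4 lie right of 0 and Slc6a11 left of it in both CNO panels.

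Against the background of 13035 genes, 4.73% had both intervals wholly above the control and 3.25% both wholly below. The median log2 ratio of the CNO mean was 0.06. Of the 7 members, 3 had both intervals wholly above the control and 1 both wholly below. The members were chosen with these values known, so nothing is read from these counts of members. The background also includes genes with far fewer UMIs than Apoe, Agt, Aqp4 and Slc6a11, and their counting intervals are wider. No member differed 2-fold in both CNO libraries, as 0.069% of all genes did. By edgeR's quasi-likelihood test with Benjamini-Hochberg adjustment over all 13035 genes, in which the lone control is assumed to vary like the CNO libraries, none of the 7 members passed: the adjusted p was 0.999 for each, and the log2 fold change was 0.69 for Apoe, -0.48 for Slc6a11, 0.38 for Agt and 0.26 for Aqp4. The same test called 0.023% of all genes. These 3 genes, named after their values were seen, were Pmch and Hcrt, neuropeptide genes of the lateral hypothalamus, and Mobp, a myelin gene; 551 genes had an unadjusted p under 0.05 and DESeq2 called 1. With nuclei left out that passed the gate of another class, and with nuclei of at least 2000 UMIs, edgeR called 0 genes (393 and 357 at an unadjusted p under 0.05). The test was also run on simulated counts with the means and library sizes of this contrast. It recovered 8 of 100 genes changed 2-fold and 74 of 100 changed 4-fold, and called 6 of 12835 unchanged genes. The simulation gave every gene an assumed spread between libraries (dispersion 0.05) and changed better counted genes only. Recovery at the real spread is therefore not known.

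Markers of other cell types also differed between these libraries. Oligodendrocyte markers in astrocyte nuclei summed to 402 CPM in the hM3 control, 1193 in CNO 1 and 733 in CNO 2, and all 8 markers were present in each library. Neuron markers there summed to 398, 520 and 621 CPM in the same order and microglia markers to 48.4, 55.7 and 93.2, with none of the 8 neuron markers and 0, 1 and 0 of the 8 microglia markers at 0. Apoe in neuron nuclei of CNO 1 (22.6 CPM) was not above that of the hM3 control (25.7), but in CNO 2 (63.0) it was. In oligodendrocytes Apoe was above the hM3 control (169, 149 to 191) in CNO 1 (216, 201 to 233) as well as in CNO 2 (332, 300.5 to 366). In progenitors (247 against 196) and microglia (234 against 127, on 14 nuclei) the intervals of CNO 1 and the control overlapped; the part of these markers and of the Apoe found in other nuclei was not tested. With nuclei left out that passed the gate of another class, the log2 ratios of the CNO mean were 0.75 for Apoe, 0.43 for Agt, 0.29 for Aqp4 and -0.40 for Slc6a11, against 0.76, 0.44, 0.32 and -0.41 in all astrocyte nuclei. For Vim, endothelial markers in astrocyte nuclei summed to 7.53 CPM in the hM3 control, 20.4 in CNO 1 and 21.1 in CNO 2, with 2, 4 and 0 of the 6 markers at 0, and nuclei that passed gates of several classes held Vim at 31.8, 20.5 and 150 CPM; their part in the Vim value was not tested.

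Among pathway genes, 11 of 14 genes of lipid carriage and cholesterol supply were higher in both CNO libraries and 1 lower in both (37.9% and 24.4% of all genes were), with a median log2 ratio of 0.43. The cholesterol synthesis genes Sqle (0.47 in CNO 1 and 0.63 in CNO 2) and Hmgcs1 (0.48 and 0.42) and their regulator Insig1 (0.62 and 0.45) were among them. Clu stood at 0.29 in CNO 1 and 1.12 in CNO 2. None of the 11 genes of glutamate and GABA handling was higher in both and 4 were lower in both, with a median of -0.07; Abat, the GABA transaminase, stood at -0.38 and -0.40. The 12 genes of water, potassium and endfeet divided 4 higher and 4 lower in both, and the bicarbonate transporter Slc4a4 stood at -0.20 and -0.42. Gja1, the astrocyte gap junction gene and part of the rule for astrocyte nuclei, stood at 0.46 and 0.32.

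Of the 13 renin-angiotensin genes, only Agt, Lnpep and Atp6ap2 reached 20 UMIs, so the other 10 were not measurable in astrocyte nuclei at this depth. Of these 3, 2 were higher and 1 lower in both CNO libraries: Atp6ap2 stood at 0.00 in CNO 1 and 0.52 in CNO 2, and Lnpep at -0.00 and -0.21. Among intermediate filaments and their linkers, Plec stood at 0.64 and 0.44 and Lmna at -0.10 and -0.26. Of 9 measured pan-reactive genes, 3 were higher in both and 1 lower in both; the chemokine gene Cxcl10 stood at 0.84 and 0.87 and Serpina3n at 0.12 and 0.45, whereas the cytokine receptor gene Osmr stood at -0.28 and -0.24. Of 10 measured inflammatory (A1-type) genes 2 were higher and 1 lower in both, with a median of 0.06, and Fbln5 stood at -0.37 and -0.60. Only 2 injury (A2-type) genes were measured, of which 1 was higher in both. Of 14 measured regulators of reactivity 3 were higher and 7 lower in both, with a median of -0.08; the transcription factor genes Nfia (-0.24 and -0.41) and Smad3 (-0.20 and -0.91) were among the lower. The 12 astrocyte markers outside the rule had a median of 0.10, with 6 higher and 3 lower in both; S100b stood at 0.57 and 0.58 and Gpc5 at -0.26 and -0.34. No gene of any list was called by edgeR or reached 2-fold in both CNO libraries.

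Genotype, virus, age and the injection on postnatal day 2 separate the first experiment from the hM3 experiment and cannot be told apart, and the saline library also lacks the VPA exposure of all hM3 libraries, so their levels are only set side by side. Gfap, Apoe, Agt, Aqp4 and Vim were higher in all 3 hM3 libraries than in both libraries of the first experiment, as were 23.6% of 13829 genes, and Slc1a3 was lower in all 3, as were 11.5%. For Gfap the gap between the nearest libraries was 1.02 on the log2 scale, past 2-fold, as in 0.484% of genes. It was not computed at equal depth. After thinning to 1000 UMIs, 3.85% of saline nuclei held a Gfap UMI (2.40 to 5.83). That interval overlapped those of the hM3 control (4.70 to 8.20) and CNO 1 (3.99 to 9.79). The gap was 0.46 for Apoe, 0.24 for Aqp4, 0.02 for Vim and 0.00 for Agt, so the order for the last pair rests on differences within counting error.

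The interferon-induced GTPase genes, a family that includes Iigp1, Gbp2 and Igtp and is induced in host defence, separated the experiments in the same nuclei. All 16 measured genes of the list were higher in the 3 hM3 libraries, and the sum over all 17 genes of the list was 22.4 CPM in saline, 21.1 in VPA, 679 in the hM3 control, 526 in CNO 1 and 969 in CNO 2. At least 1 such UMI was present in 7.34%, 4.04%, 56.5%, 44.5% and 54.0% of astrocyte nuclei, in the same order. The 7 genes were therefore compared between nuclei with and without these UMIs, as a description within each library.

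In the hM3 control, Gfap stood at 94.7 CPM in the 450 nuclei with GTPase UMIs and at 47.7 in the 346 without, a log2 ratio of 0.99 (0.59 to 1.40). In CNO 2 it stood at 125 against 66.4 (0.91, 0.49 to 1.34). In CNO 1 it stood at 83.3 against 59.8, with an interval that spans 0 (0.48, -0.10 to 1.07). Nuclei with such UMIs were deeper, at medians of 4592 against 3926 UMIs in the hM3 control. With every nucleus thinned to 1000 UMIs before the split, the Gfap ratio was 0.93 (0.08 to 1.76) in the hM3 control, 1.67 (0.33 to 3.02) in CNO 1 and 1.03 (0.39 to 1.68) in CNO 2, above 0 in all 3.

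Aqp4 was also higher in nuclei with GTPase UMIs: 289 against 203 CPM in the hM3 control, 400 against 260 in CNO 1 and 342 against 270 in CNO 2. After thinning its intervals spanned 0 in each of the 3 libraries, with ratios of 0.40, 0.63 and 0.07. In saline, with 40 such nuclei, Aqp4 stood at 202 against 216 CPM, and in VPA, with 27, at 155 against 113. Both of these unthinned intervals spanned 0. Apoe differed little by this split, at 2086 against 1977 in the hM3 control, 2987 against 3237 in CNO 1 and 3793 against 3811 in CNO 2. The Apoe levels without GTPase UMIs kept the order of the libraries, and in those nuclei the log2 ratio of the CNO mean was 0.83, against 0.76 in all astrocyte nuclei. Slc6a11 stood at 1336 with and 1551 without in the hM3 control, at 1094 and 1018 in CNO 1 and at 1059 and 1117 in CNO 2. In nuclei without GTPase UMIs Gfap still stood at 47.7 to 66.4 CPM in the hM3 libraries, against 27.9 in saline and 14.5 in VPA.

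**Figure D4:**
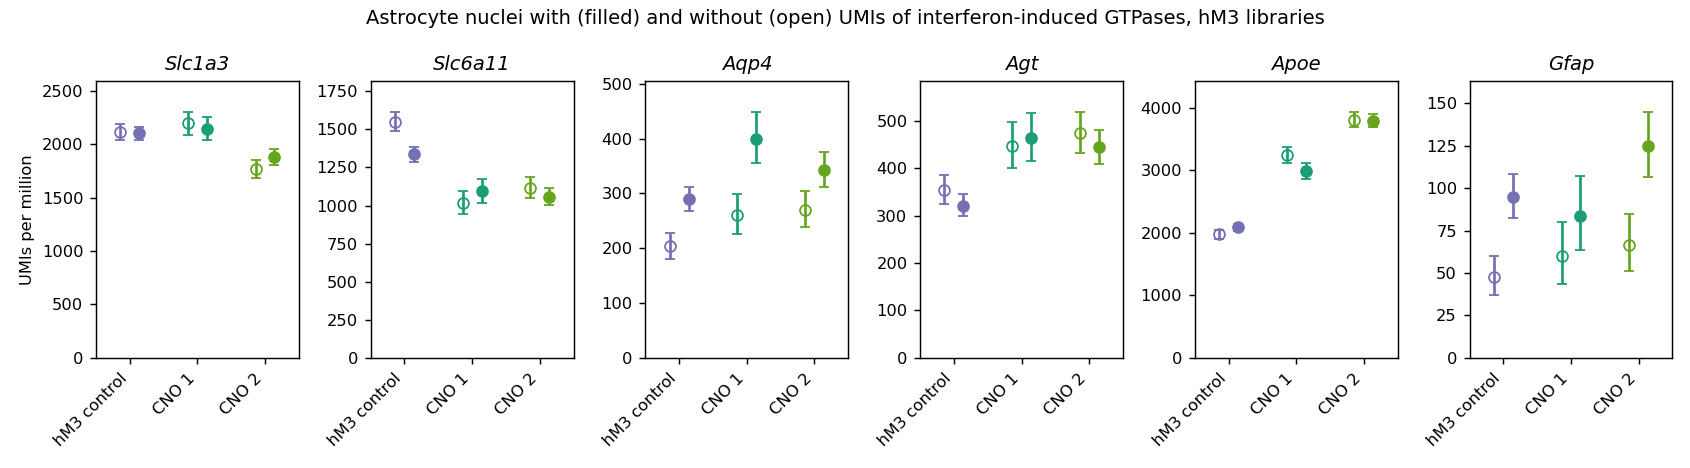
CPM of 6 genes in astrocyte nuclei with (filled) and without (open) UMIs of interferon-induced GTPases in the 3 hM3 libraries, with exact Poisson 95% intervals and axes from 0. Gfap and Aqp4 lie higher in nuclei with these UMIs in all 3 libraries (Gfap 94.7 against 47.7 in the hM3 control), and Apoe lies at nearly the same level in both kinds of nuclei of a library.

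Nuclei with and without a Gfap UMI were compared after thinning, at 1000 UMIs each. In the hM3 control, the 50 nuclei with Gfap held Apoe at 2880 CPM (2429 to 3391) and Aqp4 at 500 (324 to 738), and the 746 without held 1996 (1896 to 2100) and 224 (191 to 261). Both intervals were apart. In CNO 2 the 80 nuclei with Gfap held Apoe at 4463 (4012 to 4950) against 3874 (3743 to 4008), and Aqp4 at 325 (212 to 476) against 286 (251 to 324). There the Apoe intervals just failed to meet and those of Aqp4 overlapped. In CNO 1, with 20 such nuclei, and in the first experiment, with 21 in saline and 7 in VPA, the intervals of Apoe and of Aqp4 overlapped.

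Nuclei on either side of the astrocyte gate were also set side by side. In the hM3 control Gfap stood at 34.1 CPM both in the 143 nuclei just inside the gate (25 to 30 per 10000) and in the 109 just outside it (20 to 25), against 76.1 over all astrocyte nuclei; Apoe stood at 1671 and 1614 there. In CNO 1 Gfap stood at 19.9 just inside (4 UMIs) and 28.7 just outside (4 UMIs), against 71.3 over all astrocyte nuclei, and Apoe at 2514 and 2405, against 3115. In CNO 2 Gfap stood at 90.6 just inside and 67.5 just outside, and Apoe at 3448 and 3290. In saline Slc1a3 stood at 2220 just inside and 2446 just outside.

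Over 37 sums by class and library of at least 20 nuclei, the genes most like each member among 21846 were found by Pearson's r of log2(CPM + 10), given as a description because these sums share libraries and depth. For Slc6a11 they were Egfr (0.98), Slc4a4 (0.96) and Bmpr1b (0.96). For Agt they were Gm9925 (0.95), Ntsr2 (0.95) and Itih3 (0.94), and for Aqp4 they were Phkg1 (0.94), Fam198a (0.93) and Klhdc7a (0.93). Apoe was most like Sparcl1 (0.92), Aldoc (0.91) and Cd81 (0.91), and Slc1a3 was most like Appl2 (0.89), Nfia (0.89) and Slc7a10 (0.88). Gfap was most like Fmo1 (0.90), Cxcl14 (0.89) and Btbd17 (0.89). Vim stood apart from the other members, with Crip2, Ly6c1 and Ramp2 (each 0.94), of which Ly6c1 and Ramp2 are genes of endothelial cells; only 1 of the 37 sums was endothelial, that of CNO 2 with 42 nuclei.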

How the data were processed

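Single-nucleus RNA libraries were prepared from 5 pools of mice. Per the submitters' processing notes, the authors used Cell Ranger 7.0.1 and mm10; the deposited matrices hold raw UMI counts per feature and nucleus, and whether introns or strand were used is not given in the sources used here. The members and gene lists were chosen with earlier results of these data known.

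Nuclei under 1000 UMIs or over 5% mitochondrial UMIs were left out, with those of highest Scrublet score (0.8% per 1000 nuclei, with all nuclei tied at the limiting score; 3.94% to 8.82% removed). Scrublet's own threshold marked only 0.00928% to 2.80%. Astrocyte nuclei were summed per library (52506958 to 76243280 UMIs per library over all nuclei) and expressed as CPM (per 1000000 UMIs), with exact Poisson intervals and exact conditional binomial intervals of ratios, at 95%. These cover counting error only; the libraries are not stated to be separate litters.

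Differences over all genes used log2(CPM + 10) for genes with at least 20 UMIs in the libraries compared. CNO against control was fitted on the counts with edgeR 4.0.16 (TMM, quasi-likelihood; DESeq2 1.42.0 as an alternative) in R 4.3.3; VPA against saline has no test. Both procedures were tested on simulated data. The simulation for VPA used Poisson counts without variation between libraries, so it does not show how often such variation passes 2-fold. Named genes were taken from the members, up to 4 genes of each list furthest from 0 in each contrast (in both CNO libraries with 1 sign), and the 3 genes most like each member. Python 3.11.15 with scanpy 1.11.5 was used for the rest. Not every gene of that rule is reported here.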

Additional observations from a re-analysis of the deposited data

How the results depend on the processing

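The 14 member values (7 genes in each contrast) were recomputed under 154 alternatives. A value's tolerance was its counting error in the VPA contrast. In the CNO contrast it was the standard deviation of the log2 ratios of CNO 1 and CNO 2. That is narrow for Agt (0.43 and 0.44) and wide for Gfap (-0.08 and 0.35), so it does not rank genes by stability. Within tolerance lay 136. A further 18 moved beyond it: 8 in Agt, 4 in Slc6a11 and 2 in Aqp4 (CNO), 3 in Slc1a3 and 1 in Apoe (VPA). Agt ranged from 0.28 to 0.45 and Slc6a11 from -0.54 to -0.36 in the CNO contrast. Sign changed in 9, in Gfap (2, CNO), Slc1a3 (2, VPA and 1, CNO) and Vim (3, VPA and 1, CNO). No value that exceeded its tolerance in the main setting changed sign. Counts over all genes moved more. The 23 genes past 2-fold in the VPA contrast (13 higher and 10 lower) became 39 at 2000 UMIs or more (11 and 28). They became 187 with the gate at 50 (100 and 87), 112 with thinning (76 and 36) and 410 with a pseudocount of 1 (238 and 172). The 9 past 2-fold in both CNO libraries became 27 with the gate at 50, 58 with thinning, 158 with a pseudocount of 1, 4 with TMM scaling and 29 without nuclei holding GTPase UMIs, an alternative chosen after seeing the data; with each CNO library left out the count ranged from 45 (without CNO 2) to 101 (without CNO 1). The 3 genes called by edgeR became 10 with no filter, 10 with scaling by totals, 1 with DESeq2, 0 at 2000 UMIs or more, 10 with no minimum, 14 with doublets kept, 1 with the gate at 50, 5 with the neuron limit at 5, 0 without nuclei that passed another gate, 7 with thinning and 16 without nuclei holding GTPase UMIs. The cause of these shifts was not tested. No paired analysis was possible because the groups share fewer than 2 replicate numbers. Gfap and Vim are limited by depth, with 2 to 283 UMIs per library.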
